A study of Mus musculus with 18 samples.

Results

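The nascent RNA of 10 genes that move iron through a cell was followed in the red cell lineage of the mouse fetal liver. The genes were chosen by symbol: Tfrc, Tfr2, Slc11a2 and Steap3 for uptake, Slc25a37 and Slc25a28 for import into mitochondria, Fth1 for storage, Ireb2 and Aco1 for sensing, and Slc40a1 for export. All 10 were found among the 54232 gene identifiers of the deposited table, and all 10 passed the filter on low counts. Fetal livers came from C57BL/6 embryos of e12.5 to e13.5 with no genetic change or drug treatment. Cells were sorted by surface CD71 and Ter119, rested for 6 h and given 500 µM 4-thiouridine (4sU) for 45 min, a uridine analogue that marks RNA made in that time. Lin- cells gave 5 erythroid populations: S0-Low (CD71-, Ter119-), S0-Medium (CD71 medium, Ter119-), S1 (CD71 high, Ter119-), S2 (CD71 high, Ter119 medium) and S3 (CD71 high, Ter119 high). Lin+ cells, which carry surface markers of other blood lineages, made the sixth group. Each population had 3 libraries, 18 in all. The study calls them biological replicates but the sources used here do not say how embryos were divided between them, so p-values measure the spread between these libraries, which may be partly technical.

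Developing red cells are the main users of iron in the body, because each haem group of haemoglobin needs an iron atom. Iron arrives bound to transferrin, which docks on transferrin receptor 1 (the product of Tfrc, also called CD71) and is taken into endosomes. There the reductase Steap3 converts ferric to ferrous iron and the transporter DMT1 (Slc11a2) moves it to the cytosol. Mitoferrin 1 (Slc25a37) and mitoferrin 2 (Slc25a28) carry it into mitochondria for haem synthesis, ferritin stores the surplus in a shell of heavy (Fth1) and light (Ftl1) chains, and ferroportin (Slc40a1) is the exporter. The iron regulatory proteins IRP1 (Aco1) and IRP2 (Ireb2) bind hairpins called iron-responsive elements in messenger RNAs. Bound at the 5′ end they block translation, and bound at the 3′ end they protect the message from decay. Both actions fall on finished messages. 4sU-seq counts RNA made during the labelling time, and synthesis and decay of a message within that time were not separated.

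The hairpins are shown because they are the sites at which IRPs bind messages of this pathway. A search of the untranslated ends of GENCODE M1 coding transcripts for an unpaired c, 5 paired bases (G with T allowed), the loop CAGTGN and the 5 partner bases matched 3 of the 10 genes. Tfrc held 4 hairpins in its 3′ untranslated end of 2458 bases, starting at bases 889, 1268, 1333 and 1380. Fth1 and Slc40a1 held a single hairpin each in the 5′ untranslated end, at bases 36 of 167 and 108 of 331. Such a match occurred in 0.165% of 19945 genes at the 5′ end and in 0.625% of 20007 genes at the 3′ end. The other 7 genes had no match, and a site of another form would have been missed by this search. Ftl1 and Alas2 are not among the 10 genes and are printed for comparison. Each line gives 29 bases from 5′ to 3′, written as DNA, with the loop in capitals.
Tfrc 3′, base 889: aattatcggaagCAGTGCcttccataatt
Tfrc 3′, base 1268: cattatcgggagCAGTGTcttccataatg
Tfrc 3′, base 1333: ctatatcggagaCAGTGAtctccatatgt
Tfrc 3′, base 1380: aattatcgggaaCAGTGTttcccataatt
Fth1 5′: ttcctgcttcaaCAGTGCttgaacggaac
Slc40a1 5′: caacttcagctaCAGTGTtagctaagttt
Ftl1 5′: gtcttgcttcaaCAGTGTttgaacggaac
Alas2 5′: ttggttcgtcctCAGTGCagggcaacagg

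Total counts ranged from 9452476 in S0-Low replicate 3 to 40567976, and 3 counts in the shallowest library are worth 0.317 CPM, a count relative to the size of its own library. These floors cover counting error only. The 7 erythroid marker genes checked summed to 156 to 575 CPM in S0-Low and to 17000 to 24100 CPM in S3. The Lin+ libraries, which the labels also call erythroblasts, had only 43.1 to 89.2 CPM of erythroid markers, all 7 genes together, and 3282 to 5727 CPM of the 7 granulocyte markers. Of these 7, Itgam was at or under 3 counts in every Lin+ library. The 5 progenitor markers summed to 1027 to 1623 CPM in Lin+, 1138 to 1690 CPM in S0-Low and 0.799 to 7.26 CPM in S3. The 6 megakaryocyte markers summed to 426 to 1109 CPM in Lin+, 103 to 195 CPM in S0-Low and 40.8 to 78.0 CPM in S3. Granulocyte markers also stood at 418 to 851 CPM in S0-Low, with 5 of 7 genes over 3 counts in some library. They fell to between 0.685 and 1.504 CPM in S1 and to at most 1.01 CPM in S3. Macrophage markers, which matter here because macrophages export iron, summed to 40.5 to 68.0 CPM in S0-Low, 0.0333 to 2.96 CPM in S3 and 236 to 351 CPM in Lin+. C1qa, C1qc and Vcam1, 3 of the 10 macrophage markers, were at or under 3 counts in every S0-Low library. S0-Low cells were sorted as negative for a lineage panel that included anti-CD11b. The granulocyte markers S100a8 and Itgam were at or under 3 counts in every S0-Low library. Whether other cells were present in S0-Low, and their part in the S0-Low and Lin+ values, was not tested.

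The nascent RNA of the 10 genes took a larger share of the library in S3 than in S0-Low, without overlap. Together they took 0.0998%, 0.138% and 0.158% of all counts in the S0-Low libraries and 0.914%, 0.952% and 0.887% in the S3 libraries. Tfrc alone held 51.2%, 47.2% and 45.4% of these counts in S3, and Slc25a37 most of the remainder, with 56661, 115652 and 105593 counts. The Lin+ libraries, at 0.0838% to 0.0922%, lay below every erythroid library. In such bulk samples, fewer cells of a type and less RNA per cell cannot be told apart.

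From S0-Low to S3, 6 of the 10 genes rose (Slc25a37, Tfrc, Fth1, Slc40a1, Tfr2 and Slc11a2) and Aco1 fell. Steap3, Slc25a28 and Ireb2 were not called. Calls were made by edgeR's quasi-likelihood test on the 15 erythroid libraries at a Benjamini-Hochberg adjusted p under 0.05 over 16555 genes. Of all genes tested, 13.4% were called higher in S3 and 22.4% lower. The median log2 fold change was 1.66 over the 10 genes and -0.54 over all genes. Scaling matters for this comparison. With libraries scaled by total counts in place of TMM (edgeR's trimmed mean scaling) the median over all genes moved to -1.36, and the calls from 2220 higher and 3712 lower to 1156 higher and 6228 lower. Under that scaling Slc11a2 and Slc40a1 were no longer called (log2 fold changes 0.41 and 1.19), Ireb2 was called lower (-0.93), and the uncalled values of Steap3 and Slc25a28 changed sign to -0.76 and -0.50. Tfrc, Tfr2, Slc25a37, Fth1 and Aco1 kept their direction and call.

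**Figure D1:**
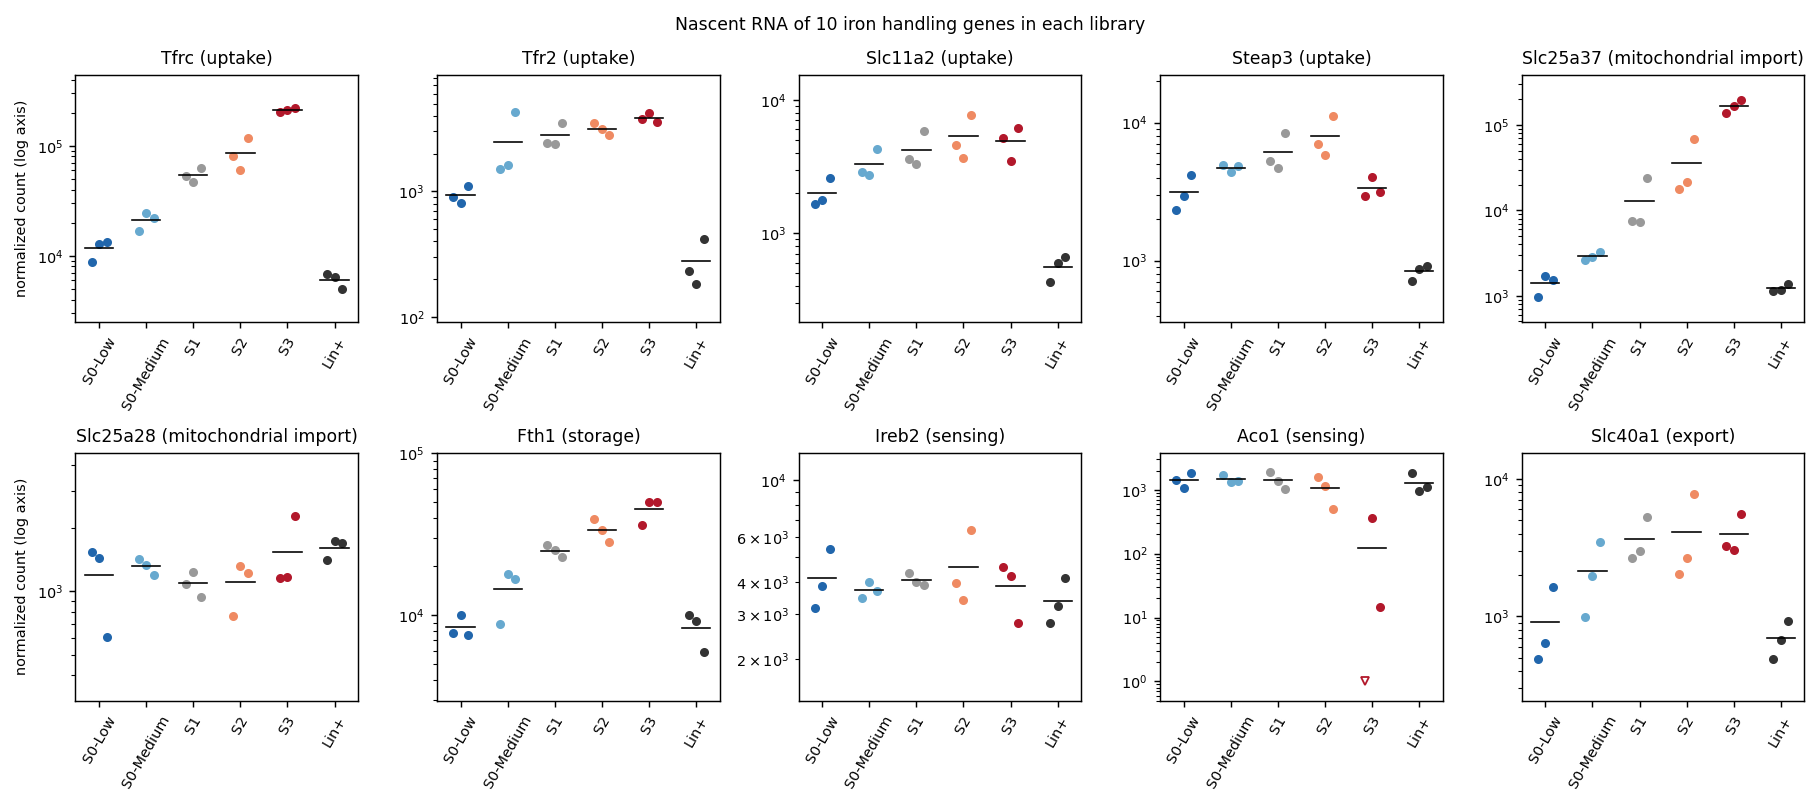
Normalized counts (log axis) of the 10 genes in each of the 18 libraries, with points for replicates 1 to 3 from left to right and a line for the mean of 3. The S3 libraries of Tfrc (203930 to 222470) and Slc25a37 (137240 to 194150) lie above all other libraries, while Aco1 falls in S3, where the open triangle drawn at 1 is a library with 0 counts.

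Values below are normalized counts, that is, counts scaled to the mean TMM-adjusted library size of the 18 libraries. They follow 1 gene across populations and are not levels per length.

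Among the uptake genes, Tfrc (ENSMUSG00000022797, chromosome 16, 32608896 to 32632794 in GRCm38) had the highest counts. Its libraries had 8850, 12744 and 13411 normalized counts in S0-Low, 16671, 24607 and 21870 in S0-Medium, 53642, 47092 and 62864 in S1, 81291, 60728 and 116940 in S2, and 203930, 212050 and 222470 in S3. Neighbouring populations did not overlap except S1 and S2. The S3 libraries lay close together, at 212819 ± 9296 (SD, n = 3), an 18.2-fold higher mean than in S0-Low. The log2 fold change was 4.19 ± 0.35 (SE; adjusted p = 1.744e-06). Because CD71 is the protein of Tfrc and the gates were set on it, the order from S0-Low to S1 is not independent of the sort. S1, S2 and S3 were all gated as CD71 high, and between S1 and S3 the nascent RNA of Tfrc still rose by a log2 fold change of 1.97 ± 0.32 (adjusted p = 0.0007684).

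Tfr2 (ENSMUSG00000029716, chromosome 5, 137569822 to 137588081) encodes the second transferrin receptor, which binds transferrin less tightly and is known as a sensor of transferrin iron and a partner of the erythropoietin receptor. Its libraries had 909, 807 and 1113 normalized counts in S0-Low, 1517, 1625 and 4249 in S0-Medium, 2448, 2397 and 3522 in S1, 3506, 3156 and 2789 in S2, and 3771, 4213 and 3578 in S3. Most of the difference was already present in S1, and replicate 3 of S0-Medium stood above the other libraries of its population. S3 was higher than S0-Low by a log2 fold change of 2.03 ± 0.38 (adjusted p = 0.0009383), with no overlap.

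Tfrc and Tfr2 therefore rose by unequal amounts, which a ratio taken within each library shows independently of scaling. The log2 ratio of Tfrc to Tfr2 counts was 3.28, 3.98 and 3.59 in S0-Low and 5.76, 5.65 and 5.96 in S3. The mean difference was 2.17, without overlap, with an exact permutation p = 0.1 (two-sided), and a design of 3 against 3 libraries can give none smaller. The ratio lay at 4.45, 4.30 and 4.16 in S1, between those of S0-Low and S3, with no overlap with either. No ratio test of this design can pass 0.05.

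Slc11a2 (ENSMUSG00000023030, chromosome 15, 100387898 to 100424209) had 1651, 1779 and 2613 normalized counts in S0-Low, 3584, 3304 and 5810 in S1, 4584, 3692 and 7732 in S2 and 5152, 3453 and 6108 in S3. The S3 libraries were above all S0-Low libraries, but overlapped those of S1 and S2. Slc11a2 was higher in S3 than in S0-Low by a log2 fold change of 1.28 ± 0.37 (adjusted p = 0.0139). It was not called without S0-Low replicate 1 (adjusted p = 0.07312), S0-Low replicate 2 (0.06784) or S3 replicate 3 (0.05458). Slc11a2 overlaps Gm5475 on the opposite strand in GENCODE M1, and whether strand was used in counting is not given in the sources used here.

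Steap3 (ENSMUSG00000026389, chromosome 1, 120226414 to 120271081) followed another course, with its highest mean in S2 and a lower one in S3. Its libraries had 2315, 2921 and 4174 normalized counts in S0-Low, 4919, 4379 and 4864 in S0-Medium, 5279, 4665 and 8408 in S1, 7017, 5827 and 11152 in S2 and 2955, 4014 and 3135 in S3. Every S3 library was below every S2 and S1 library and within the range of S0-Low. Steap3 was called in the test for any difference among the 5 erythroid populations (adjusted p = 0.02103), as were Tfrc, Tfr2, Slc25a37 and Fth1 and 24.6% of all genes. It fell from S2 to S3 by a log2 fold change of -1.24 ± 0.33 (adjusted p = 0.02912). Without S2 replicate 1, S2 replicate 3, S3 replicate 1 or S3 replicate 3 the fall was not called (adjusted p = 0.05778, 0.07447, 0.07658 and 0.08468), nor with RLE factors, DESeq2's scaling (0.05076).

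Of the mitochondrial iron importers, Slc25a37 made the largest rise among the 10 genes and Slc25a28 was not called in any comparison. Slc25a37 (ENSMUSG00000034248, chromosome 14, 69241848 to 69285544), the mitoferrin known to serve haem synthesis in erythroid cells, had 976, 1697 and 1511 normalized counts in S0-Low and 2603, 2873 and 3223 in S0-Medium. It had 7457, 7374 and 23856 in S1, 17878, 21462 and 68175 in S2, and 137240, 166750 and 194150 in S3. In S1 and S2 the value of replicate 3 was far above the other libraries, which left S1 and S2 overlapping. The S3 mean was 119-fold that of S0-Low, with a log2 fold change of 6.89 ± 0.66 (adjusted p = 5.31e-06).

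Slc25a28 (ENSMUSG00000040414, chromosome 19, 43663801 to 43675006), the mitoferrin of most other tissues, had 1547, 1447 and 605 normalized counts in S0-Low and 1163, 1166 and 2278 in S3, and ranged from 768 to 1423 in the populations between. The other 4 erythroid populations all overlapped S0-Low. The log2 fold change of S3 against S0-Low was 0.35 ± 0.42 (adjusted p = 0.5281). Within libraries, the log2 ratio of Slc25a37 to Slc25a28 counts went from -0.66, 0.23 and 1.32 in S0-Low through 2.77, 2.57 and 4.67 in S1 to 6.88, 7.16 and 6.41 in S3. The mean difference between S3 and S0-Low was 6.52 (no overlap, exact permutation p = 0.1). The sequences of the pair can be told apart in counting, since 0.048% of the 31-base stretches of Slc25a37 and 0% of those of Slc25a28 occur in another coding gene of GENCODE M1.

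The storage gene Fth1 (ENSMUSG00000024661, chromosome 19, 9980600 to 9985111) had a higher mean at each step. Its libraries had 7770, 10054 and 7501 normalized counts in S0-Low, 8774, 17823 and 16734 in S0-Medium, 26942, 25252 and 22970 in S1, 39202, 33550 and 28366 in S2 and 36078, 50185 and 49965 in S3. S2 lay above S1 without overlap, and S3 overlapped S2. From S0-Low to S3 the log2 fold change was 2.43 ± 0.31 (adjusted p = 5.106e-05). The light chain gene Ftl1 had 3800, 4080 and 3003 normalized counts in S0-Low and 17062, 21034 and 21736 in S3. It rose by a log2 fold change of 2.46 ± 0.34 (adjusted p = 7.814e-05), so both ferritin chains rose.

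Of the sensors, Aco1 was called lower in S3 than in S0-Low and Ireb2 was not called with TMM scaling. Ireb2 (ENSMUSG00000032293, chromosome 9, 54862658 to 54912534) had 3169, 3840 and 5377 normalized counts in S0-Low and 4583, 4209 and 2756 in S3. It was not called in any comparison with TMM scaling, and its log2 fold change of S3 against S0-Low was -0.10 ± 0.31 (adjusted p = 0.8153). With library totals Ireb2 was called lower in S3, in the same direction as Aco1 (-0.93, edgeR adjusted p = 0.03307). Aco1 (ENSMUSG00000028405, chromosome 4, 40143265 to 40199009), whose protein is also the cytosolic aconitase when it carries an iron-sulfur cluster, had 1414, 1049 and 1813 normalized counts in S0-Low, 1898, 1399 and 1015 in S1 and 1561, 1159 and 499 in S2.

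In S3 the raw counts of Aco1 were 0, 247 and 8, against 1710, 1315 and 683 in S0-Low. Each S3 library was below every other library of the series, but the S3 libraries differed widely among themselves. The log2 fold change of S3 against S0-Low was -3.51 ± 1.12 (adjusted p = 0.02405), and it was -3.51 ± 1.12 against S1 (adjusted p = 0.03852). Replicate 2 held most of the S3 counts. Without it the log2 fold change against S0-Low was -7.48 (adjusted p = 6.984e-05), and without S3 replicate 3 it was -2.99 and not called (0.06171). Against S1 the call was also lost without S1 replicate 1 (0.09551), S1 replicate 2 (0.07573) or S3 replicate 3 (0.09388).

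The log2 ratio of Ireb2 to Aco1 counts was 1.16, 1.87 and 1.57 in S0-Low and 11.9, 3.56 and 7.46 in S3. The S3 values sat above all others except that of S2 replicate 3, at 3.67. The mean difference of 6.10 between S3 and S0-Low had an exact permutation p = 0.1. Its size depends on the 0.5 added to each count, since it was 6.90 with 0.1 added and 4.79 with 5. It was 3.98 without S3 replicate 1.

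**Figure D2:**
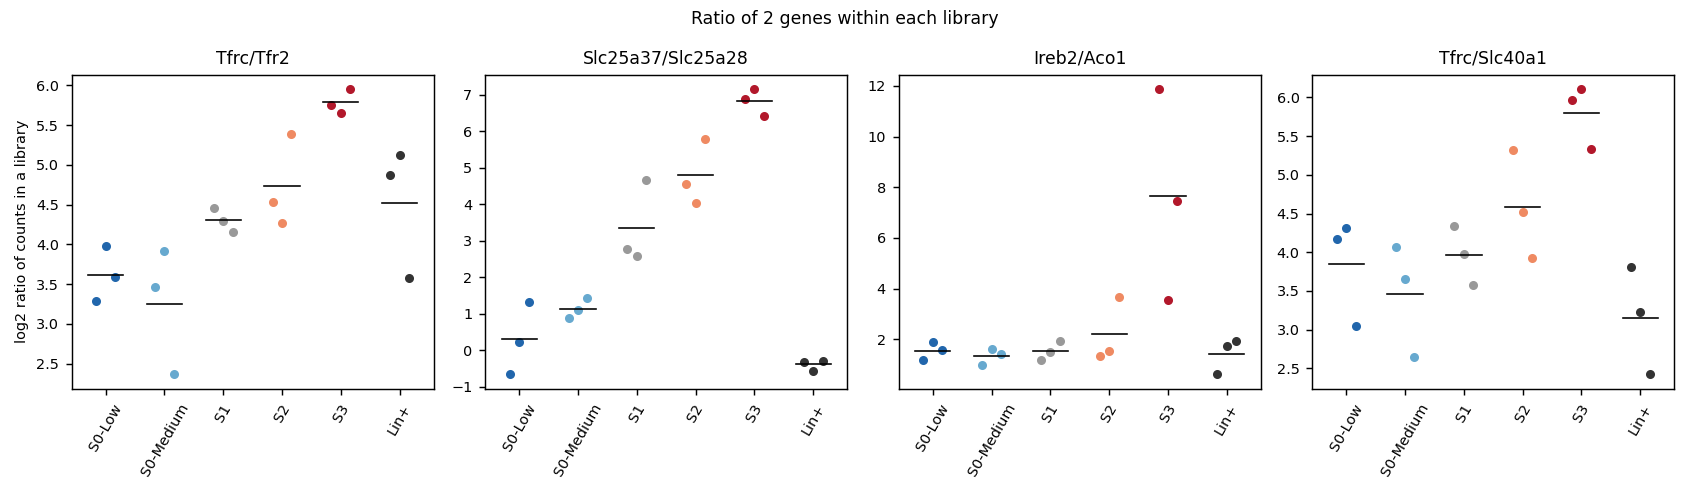
Log2 ratio of the counts of 2 genes within each library, with 0.5 added to each count, by population; points are replicates 1 to 3 from left to right and lines are means of 3. The S3 libraries lie above all S0-Low libraries in each panel, with means of 5.79, 6.82, 7.64 and 5.80 in S3 against 3.62, 0.29, 1.53 and 3.84 in S0-Low.

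The export gene Slc40a1 (ENSMUSG00000025993, chromosome 1, 45908070 to 45926532) had 489, 641 and 1625 normalized counts in S0-Low, 993, 1955 and 3505 in S0-Medium, 2660, 2991 and 5263 in S1, 2037, 2649 and 7730 in S2 and 3260, 3065 and 5520 in S3. Replicate 3 was the highest library in all 5 populations. S1, S2 and S3 did not overlap S0-Low, whereas S1, S2 and S3 overlapped each other. The log2 fold change of S3 against S0-Low was 2.11 ± 0.60 (adjusted p = 0.01388). The call was lost without S0-Low replicate 1 (adjusted p = 0.06784), S0-Low replicate 2 (0.06566) or S3 replicate 3 (0.051).

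Uptake and export were set against each other by the log2 ratio of Tfrc to Slc40a1 counts, which was 4.18, 4.31 and 3.04 in S0-Low, 4.33, 3.98 and 3.58 in S1 and 5.97, 6.11 and 5.33 in S3. The mean difference between S3 and S0-Low was 1.96 (no overlap, exact permutation p = 0.1). Ratios in S1 overlapped those of S0-Low.

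Counts per kilobase of the longest transcript put the genes of 1 population in order. In S0-Low, Fth1 led with 9748 ± 1620 (SD, n = 3) normalized counts per kilobase, followed by Tfrc with 2386 ± 504 and Slc25a28 with 793 ± 342, and the other 7 genes lay between 272 and 711. From Slc25a28 downwards neighbouring means differed by less than the larger SD, except Slc11a2 with 456 ± 118 and Slc25a37 with 335 ± 89.9. In S3, Fth1 with 52435 ± 9333, Tfrc with 43521 ± 1901 and Slc25a37 with 39895 ± 6838 stood together, and each differed from the next by less than the larger SD. The next gene, Tfr2, had 1317 ± 111 per kilobase, and Aco1 was last with 28.4 ± 46.3. Slc25a37 was seventh in S0-Low, at 335 ± 89.9 per kilobase, and so reached the level of Tfrc in S3 from far below it.

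Splitting the course at S1 separated early from late differences. From S0-Low to S1, Slc25a37, Tfrc, Fth1 and Tfr2 rose, with log2 fold changes of 3.20 ± 0.55, 2.22 ± 0.32, 1.56 ± 0.30 and 1.56 ± 0.38 (edgeR adjusted p = 0.007628, 0.002669, 0.012 and 0.03588). These are 4 of the 10 genes, against 0.979% of all genes called higher and 1.95% called lower. When replicate number entered the model as a block, 7 genes were called higher, where 2.81% of all genes were higher and 3.23% lower: Slc40a1 (log2 fold change 2.12, adjusted p = 0.0005358), Slc11a2 (1.04, 0.006708) and Steap3 (0.95, 0.03993) joined. With any 1 of the 6 libraries left out, between 1 and 3 genes were called. Tfr2 was then not called in any of the 6 (adjusted p from 0.08474 to 0.1699), nor with RLE factors (0.06646), library totals (0.08749) or at least 10 counts in every library (0.07173). Fth1 was not called without S0-Low replicate 1 (0.08246), S0-Low replicate 3 (0.06581), S1 replicate 1 (0.0659) or S1 replicate 2 (0.05015), nor Slc25a37 without S0-Low replicate 1 (0.05003).

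From S1 to S3, Slc25a37 (log2 fold change 3.69 ± 0.57, adjusted p = 0.000576) and Tfrc rose further and Aco1 fell. Among all genes 7.21% were called higher and 12.1% lower, or 1193 and 1997 genes, against 586 and 3900 with library totals, under which Steap3 was also called lower (-1.51, adjusted p = 0.005721). Fth1 had 0.86 ± 0.30 and missed the threshold (adjusted p = 0.05428), and it was called with the replicate block (0.02243), DESeq2 (0.007872), RLE factors (0.04413) and all 18 libraries (0.04531), but had 0.21 with library totals (0.6197). Steap3 was called lower with the block (-0.80, 0.03019) and with at least 10 counts in every library (-0.99, 0.03228). Under the block 11.1% of all genes were called higher and 18.2% lower. For Slc11a2, Slc40a1 and Tfr2 the log2 fold changes from S1 to S3 were 0.22 ± 0.36, 0.12 ± 0.58 and 0.47 ± 0.37, and with library totals they were -0.45, -0.57 and -0.18, none of them called. Their means in S1 were already 2.10-fold, 3.96-fold and 2.96-fold those in S0-Low.

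Taken step by step, edgeR made calls only at the last one. Its log2 fold changes for Tfrc and Slc25a37 were of similar size from S0-Medium to S1, where no gene at all was called. At that step they were 1.37 ± 0.31 and 2.15 ± 0.53 (edgeR adjusted p = 0.1835 and 0.2124). From S2 to S3, Slc25a37 rose by 2.22 ± 0.53 and Tfrc by 1.31 ± 0.31 on the log2 scale (edgeR adjusted p = 0.01735 and 0.01632) and Steap3 fell, when 3.26% of all genes were called higher and 6.09% lower (540 and 1008 genes, against 288 and 2264 with library totals). The calls of Tfrc and Slc25a37 were lost without S2 replicate 1 (0.06469 and 0.07886) or S2 replicate 2 (0.07742 and 0.08283), and that of Tfrc with library totals (0.06494). Without S2 replicate 1 none of the 10 genes was called at this step. Aco1 had -3.09 ± 1.10 and was not called (0.0873), but was called with the replicate block (-3.48, 0.04706), library totals (-3.60, 0.04217) and DESeq2 (-3.12, 0.02543), and without S3 replicate 2 (-7.07, 0.0002878).

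At the 3 earlier steps edgeR called 0 of the 10 genes and 0% of all genes. At an unadjusted p under 0.05 it found 3 of the 10 from S0-Low to S0-Medium (Tfrc, Tfr2 and Fth1), 3 from S0-Medium to S1 (Tfrc, Slc25a37 and Fth1) and 2 from S1 to S2 (Tfrc and Slc25a37). Over all 16555 genes that threshold was passed by 539, 1135 and 667 genes at these steps. DESeq2 called 0, 2 and 0 of the 10 genes. Its 2 calls from S0-Medium to S1 were Tfrc (log2 fold change 1.27, adjusted p = 0.002827) and Slc25a37 (2.06, 0.02238), where it called 0.185% of all genes higher and 2.27% lower. The same pair was called there with the replicate block (1.37 with adjusted p = 0.03185, and 1.94 with 0.0387), where 0.169% of all genes were called higher and 0.175% lower.

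**Figure D3:**
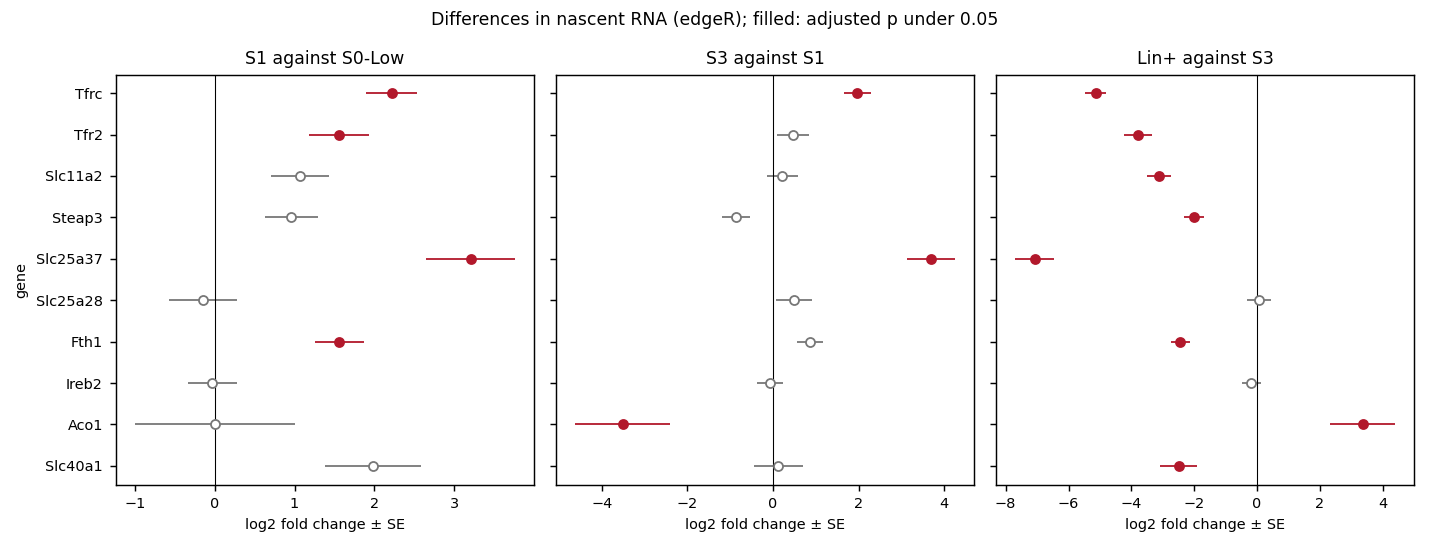
Log2 fold change ± SE from edgeR for the 10 genes in S1 against S0-Low, S3 against S1 and Lin+ against S3, with filled points at an adjusted p under 0.05; axis ranges differ between panels. Tfrc and Slc25a37 are called in all 3 panels, Aco1 in the panels that hold S3 and in the opposite direction to them, and Slc25a28 and Ireb2 in none.

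In Lin+ cells the 4 uptake genes had lower counts than in the erythroid populations, but only 2 of them were called against S0-Low. Tfrc had 6903, 6357 and 4970 normalized counts, Tfr2 235, 182 and 418, Slc11a2 431, 594 and 664, and Steap3 715, 869 and 921. Every Lin+ library was below every erythroid library for each of these 4 genes. Against S0-Low, Steap3 was lower by a log2 fold change of -1.91 ± 0.32 and Slc11a2 by -1.84 ± 0.36 (edgeR on 18 libraries, adjusted p = 0.006981 and 0.02002). These were the only 2 of the 10 genes called, where 0.22% of all 17755 genes were called lower and 0.496% higher. Tfr2 (-1.76 ± 0.40) missed the threshold at an adjusted p of 0.05015, and was called with DESeq2 (0.004934) and with no filter (0.04053). Tfrc had -0.94 ± 0.28 and was not called (0.1599). Slc11a2 lost its call without S0-Low replicate 2 (0.05685), S0-Low replicate 3 (0.09374) or any Lin+ library (0.07184 to 0.1298), and Steap3 without Lin+ replicate 1 (0.05482). Granulocyte markers, at 3282 to 5727 CPM in Lin+ and 418 to 851 CPM in S0-Low, move with this comparison, and their part in it was not tested.

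The mitochondrial, storage, sensing and export genes overlapped between Lin+ and S0-Low. Slc25a37 had 1125 to 1383 normalized counts in Lin+, Slc25a28 1403 to 1729, Fth1 5938 to 9963, Ireb2 2764 to 4131, Aco1 961 to 1806 and Slc40a1 491 to 928. Their log2 fold changes lay between -0.39 (Slc40a1) and 0.42 (Slc25a28), and none was called. Fth1 was the leading gene per kilobase in Lin+ too, with 9644 ± 2459 (SD, n = 3), and Tfrc was next with 1243 ± 204.

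Against S3, 7 of the 10 genes were lower in Lin+ and Aco1 was higher, where 14.1% of all genes were called lower and 28.2% higher (2496 and 5005 genes, against 1338 and 7126 with library totals, which moved the median over all genes from 0.69 to 1.47). The log2 fold changes were -7.08 ± 0.62 for Slc25a37, -5.13 ± 0.33 for Tfrc, -3.79 ± 0.43 for Tfr2 and -3.12 ± 0.38 for Slc11a2. For Slc40a1, Fth1 and Steap3 they were -2.50 ± 0.59, -2.44 ± 0.31 and -2.01 ± 0.32. Adjusted p for these 7 genes ran from 2.575e-08 to 0.002786. Aco1 was higher by 3.36 ± 1.04 (0.01596), with 961 to 1806 normalized counts against 0, 356 and 14.7 in S3. With a replicate left out its log2 fold change ranged from 2.8 to 7.4, and it stayed called. Slc25a28 and Ireb2 had 0.07 ± 0.39 and -0.19 ± 0.30. The comparisons of Lin+ and of S0-Low with S3 share the S3 libraries.

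Of 27 other genes of iron handling, 14 had enough counts to be tested in the erythroid libraries. From S0-Low to S3, 6 of these rose and 1 fell (13.4% and 22.4% of all genes), with a median log2 fold change of 0.64 over the 14 and -0.54 over all genes. Ftl1 is given above. The others include Erfe, whose hormone erythroferrone is made by erythroid cells and lowers hepcidin. Its counts were 173, 291 and 0 in S0-Low and 2746, 5409 and 1925 in S3. The log2 fold change was 5.55 ± 1.23 (adjusted p = 0.002908), and in normalized counts the S3 libraries (6651, 7799 and 3539) were above all others.

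Ncoa4, the receptor that delivers ferritin to lysosomes for breakdown, had 2109, 2070 and 2756 normalized counts in S0-Low, 2404, 2788 and 4995 in S2 and 13642, 17718 and 33263 in S3. The means of S0-Low, S0-Medium, S1 and S2 lay between 2092 and 3396, so the rise fell between S2 and S3. Its log2 fold change from S0-Low to S3 was 3.22 ± 0.46 (adjusted p = 0.0001206).

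Slc39a8, which encodes the metal transporter ZIP8, rose early. It had 1327, 1704 and 2469 normalized counts in S0-Low, 7837, 7062 and 12324 in S1 and 11726, 9395 and 5398 in S3. Its log2 fold change was 2.30 ± 0.40 in S1 against S0-Low (adjusted p = 0.007628) and 2.27 ± 0.40 in S3 against S0-Low (0.0005803). In Lin+ it had 361 to 529 normalized counts.

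Snx3 and Vps35, which return transferrin receptor from endosomes to the surface, rose by log2 fold changes of 1.58 ± 0.41 and 1.16 ± 0.27 from S0-Low to S3 (adjusted p = 0.008451 and 0.00457). Neither was called with library totals (0.71 and 0.30). Fbxl5, the ubiquitin ligase subunit that targets IRP2 for breakdown when iron is plentiful, fell by a log2 fold change of -1.23 ± 0.35 (0.01433). It had 2272, 1996 and 3292 normalized counts in S0-Low and 1490, 792 and 951 in S3, and was not called without S3 replicate 2 (0.05363).

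**Figure D4:**
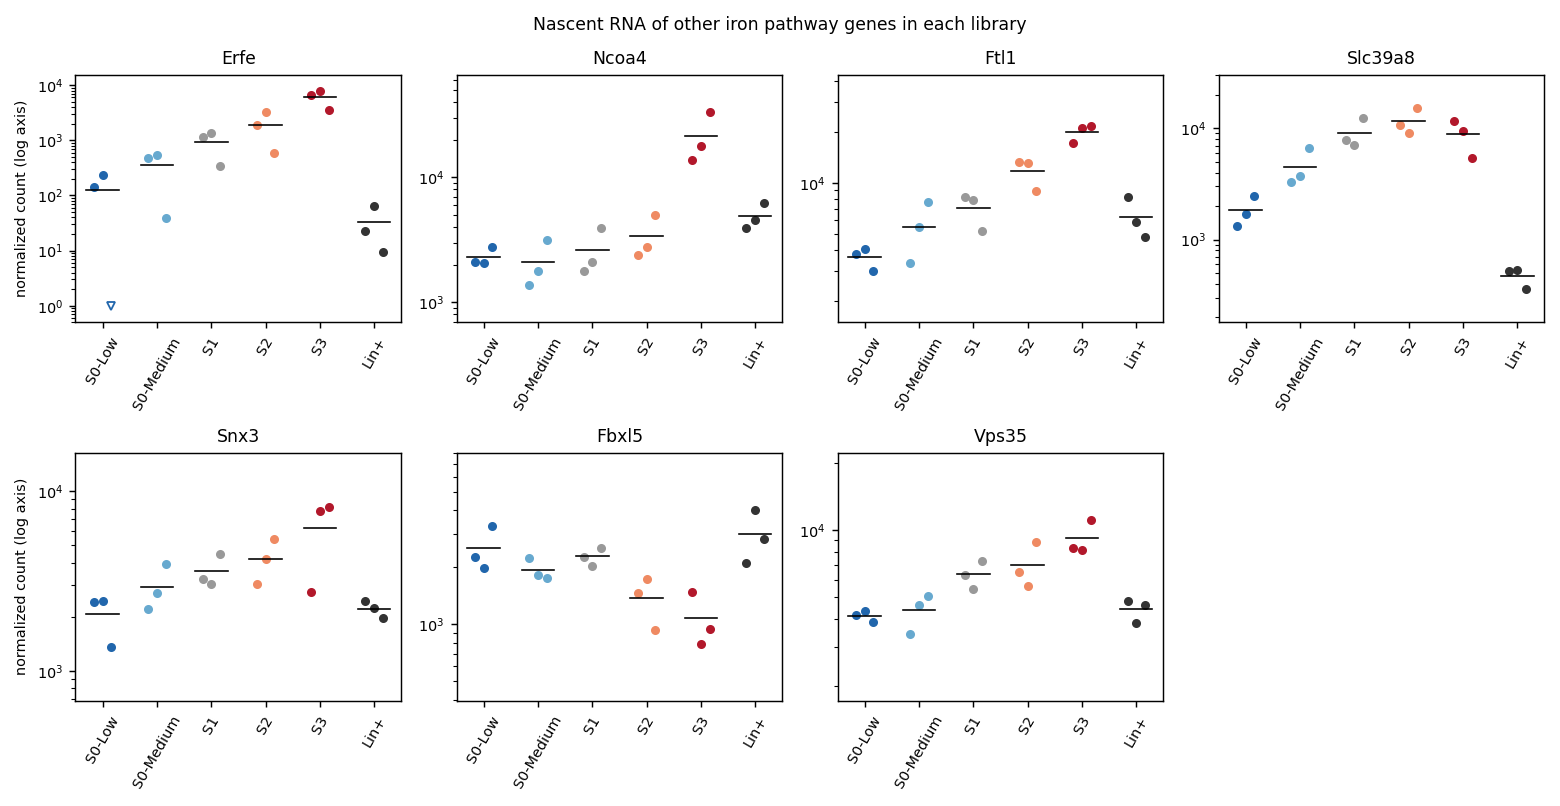
Normalized counts (log axis) in each of the 18 libraries for the 7 other iron genes called between S0-Low and S3, with points for replicates 1 to 3 from left to right and lines for means of 3. Ncoa4 stays between 1381 and 4995 in the erythroid libraries up to S2 and reaches 13642 to 33263 in S3, while Slc39a8 is high from S1 on; the open triangle drawn at 1 is a library with 0 counts of Erfe.

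Some of the other iron genes had few or no counts in erythroid cells. The transferrin gene Trf had 9 counts in S0-Low replicate 2 and 0 in the other 17 libraries, summed over its 2 identifiers. Hamp, which encodes hepcidin, had at most 8 counts in an erythroid library. In Lin+, Lcn2, whose protein binds bacterial iron carriers and is stored in neutrophil granules, had 2977, 4060 and 2275 counts against 0 in every S0-Low library, and Hfe, a partner of transferrin receptors, had 336, 194 and 303 counts against 70, 44 and 0 in S0-Low and 0 in every S3 library.

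The genes known to carry iron-responsive elements did not all pass the test. Of 5 described here with the element at the 5′ end, Alas2 (log2 fold change 9.49 ± 0.64, adjusted p = 4.805e-07), Ftl1, Fth1 and Slc40a1 rose from S0-Low to S3. Epas1 had at most 82 counts in any library and 0 in 2 of the 3 S3 libraries, and is given no fold. Of 3 with the element at the 3′ end, Tfrc and Slc11a2 rose and Cdc14a had -0.81 ± 0.43 (0.146). Alas2 encodes the first enzyme of erythroid haem synthesis, and had 128, 154 and 175 normalized counts in S0-Low and 83126, 114400 and 129830 in S3. Called genes with an element thus include 4 of these 5 with the 5′ form and 2 of 3 with the 3′ form. All 6 were higher in S3, where 13.4% of all genes were. Fth1, Ftl1, Slc40a1, Tfrc and Slc11a2 were already counted above as rising, so this tally is not independent of those counts. Counts are per gene, and whether the transcripts counted carry the element was not tested. The hairpins printed above belong to 5 of these 6 called genes, and Slc11a2 had no match to the search.

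RefSeq promoters (GRCm38.p6) were at hand for 7 of the 10 genes, with 14 start sites. The 250 bases before each start were searched on both strands for GATAA, a core of the sites that GATA factors bind, and CACCC, a core of KLF1 sites. GATAA was found before 4 of the 14 starts and in 22.6% of 32851 promoters, and CACCC before 11 of the 14 and in 52% of promoters. Tfrc and Aco1 are shown because they moved in opposite directions. The window before the first of the 2 Tfrc starts is printed, and the other, which overlaps it, held 0 GATAA and 3 CACCC matches. Both printed windows held 0 GATAA and 2 CACCC matches, which are in capitals and appear as GGGTG where they lie on the other strand. Both are on the plus strand.
Tfrc, chr16:32608646-32608895: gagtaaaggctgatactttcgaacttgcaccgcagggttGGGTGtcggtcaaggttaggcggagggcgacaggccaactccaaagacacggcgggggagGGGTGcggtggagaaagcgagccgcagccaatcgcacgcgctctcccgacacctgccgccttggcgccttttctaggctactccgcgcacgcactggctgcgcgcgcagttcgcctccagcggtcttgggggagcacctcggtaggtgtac
Aco1, chr4:40143015-40143264: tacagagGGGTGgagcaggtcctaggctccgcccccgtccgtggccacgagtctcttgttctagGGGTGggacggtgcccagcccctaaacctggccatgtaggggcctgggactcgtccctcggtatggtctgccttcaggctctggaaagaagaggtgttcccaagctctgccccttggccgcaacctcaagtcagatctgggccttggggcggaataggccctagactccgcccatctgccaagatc

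The genes whose log2(CPM + 0.5) ran most alike with each of the 10 over the 15 erythroid libraries were listed by Pearson's r among 8779 genes with a mean of at least 10 CPM. These are descriptions, since the libraries share populations and depth. For Tfrc they were the red cell membrane genes Spna1 (r = 0.993) and Slc4a1 (0.987) and the haem gene Alas2 (0.989). For Slc25a37 they were Alas2 (0.995), the membrane skeleton gene Epb4.9 (0.994) and Fech (0.993), which encodes the enzyme that puts iron into haem. For Fth1 they were the membrane skeleton gene Add2 (0.962), Rfesd (0.961) and Cpox (0.960), a haem synthesis enzyme. Slc11a2 and Slc40a1 were among each other's 3 nearest genes (r = 0.932), with Cep70 (0.938) and Fbxo3 (0.932) for Slc11a2 and Gnai3 (0.943) and Pkhd1l1 (0.935) for Slc40a1. Replicate 3 was the highest library of both Slc11a2 and Slc40a1 in every erythroid population, and its part in their likeness was not tested. Aco1 was nearest to Gaa (0.987), Rap2b (0.985) and Snx30 (0.981), and Tfr2 had Slc25a21 (0.918) and Lmna (0.915) among its nearest. The values were lower for Steap3 (Gpc4, 0.883, then Slc35e2, 0.881, and Ankrd32, 0.878), Slc25a28 (Slc22a21, 0.889, then an identifier without a symbol, 0.851, and Dctn3, 0.828) and Ireb2 (Impad1, 0.905, then S100pbp, 0.840, and Ptpn12, 0.820).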

How the data were processed

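The data are 4sU-seq libraries of nascent RNA, 3 for each of 6 sorted populations and 18 in all. Population and replicate number of each were read from the labels. The authors amplified the libraries with 14 PCR cycles without molecular identifiers, quantified reads with Kallisto (0.43.0, GRCm38, per the submitters' processing notes) and deposited whole-number counts per gene, neither normalized nor pooled. The transcript set used for counting is not given in the sources used here. Kallisto shares reads between transcripts with the same sequence, and 0% to 1.19% of the 31-base stretches of each of the 10 genes occur in another coding gene.

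Models were fitted with edgeR 4.0.16 (R 4.3.3), with DESeq2 1.42.0 as an alternative. Summaries and figures were made using pandas 2.3.3, numpy 2.4.6 and matplotlib 3.10.9 under Python 3.11.15. The edgeR model used TMM scaling, filterByExpr and population as the only factor, with 15 erythroid libraries (16555 genes) or all 18 for comparisons with Lin+ (17755 genes). Its two-sided quasi-likelihood test was adjusted over all genes by the Benjamini-Hochberg method, at 0.05. The common biological coefficient of variation was 0.795 and 0.771. The step was tested on simulated data in which a small share of genes changed in S3, in both directions. Those data held no shift over many genes like that of the real S3 libraries, so they do not test the scaling. Total counts ranged from 9452476 to 40567976, and 3 counts were taken as the floor. No pair of replicates was the same within counting error, with chi-square values of 79.3 to 475 times the degrees of freedom.

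Members and lists were chosen with earlier results of these data known. All 10 genes are named. Other iron genes are named if called in S3 against S0-Low and if their higher population mean reached 100 normalized counts. Trf, Hamp, Lcn2 and Hfe were named after their values were seen. One gene of the iron-responsive element list and one of the genes most like Tfr2 are not reported here. Gene positions, with the names of genes under older symbols (Tfr2 as Trfr2, Erfe as Fam132b), come from RefSeq's GRCm38.p6 table.

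Labels give the same replicate numbers in each population, without saying what they stand for. Deviations of same-numbered libraries from their population means correlated at over 0.1 in all 3 pairs for each comparison within the erythroid populations (0.111 to 0.408) except S3 against S0-Low (0.0352 to 0.0956), and not in all pairs for Lin+ (0.0755 to 0.138). The numbers were taken to pair the libraries in the former. The main tests left this pairing out, with population as the only factor, and calls with the replicate block are given as an alternative. Alternatives were DESeq2, RLE factors, library totals, no filter, at least 10 counts in every library, the replicate block, all 18 libraries, each replicate left out and, for ratios, pseudocounts of 0.1 and 5.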

Additional observations from a re-analysis of the deposited data

How the results depend on the processing

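The count of iron genes called in S3 against S0-Low was 7, stayed between 6 and 7 under the 7 other settings and between 4 and 7 with each replicate left out; it was 4 without S3 replicate 3. In S1 against S0-Low it was 4, then 7 with the replicate block, 5 with no filter (Slc40a1 added), 3 with RLE factors, library totals or at least 10 counts in every library (Tfr2 lost) and 1 to 3 with a replicate left out. In S3 against S1 it was 3, then 5 with the block, 4 with DESeq2, RLE factors and all 18 libraries (Fth1 added), 4 with library totals (Steap3 added) and 2 to 3 with a replicate left out. In S1 against S0-Medium it was 0, then 2 with DESeq2, 2 with no filter, 2 with the block and 1 with all 18 libraries. In S2 against S1 it was 0, then 1 with no filter. In S3 against S2 it was 3 and ranged from 0 to 4 with a replicate left out, in Lin+ against S0-Low 2 (3 with DESeq2 or no filter, Tfr2 added) and from 0 to 2, in Lin+ against S3 8 and 8 throughout, and in the test for any difference 5 and from 3 to 7. In the comparisons whose numbers do not pair the libraries, the block gave 7 genes for S3 against S0-Low, 3 for Lin+ against S0-Low (Tfr2 added) and 8 for Lin+ against S3. The block left the ratio differences unchanged, with a sign-flip p of 0.25, the smallest that 3 pairs allow. Ratio differences with a replicate left out ranged from 2.00 to 2.35 for Tfrc/Tfr2, 6.04 to 7.04 for Slc25a37/Slc25a28, 3.98 to 8.14 for Ireb2/Aco1 and 1.56 to 2.20 for Tfrc/Slc40a1. Of 1231 values of single genes under an alternative, 1158 kept their side of the threshold, 45 lost the call, 28 gained it, and no value called under either setting changed sign. Causes were not tested.

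Counts over all genes moved by more than 1.5 times as follows, and the shares of all genes called move with them. S1 against S0-Low had 484 genes, 1708 with DESeq2, 1139 with no filter, 142 with at least 10 counts in every library, 999 with the block and 963 with 18 libraries. S3 against S1 had 3190, 5156 with DESeq2 and 4859 with the block. S3 against S2 had 1548, 3410 with DESeq2, 2552 with library totals, 2546 with no filter and 3074 with the block. S0-Medium against S0-Low had 0, 55 with DESeq2, 53 with no filter and 23 with the block. S1 against S0-Medium had 0, 410 with DESeq2, 327 with no filter, 57 with the block and 125 with 18 libraries. S2 against S1 had 0, 159 with DESeq2, 77 with no filter and 2 with 18 libraries. Lin+ against S0-Low had 127, 664 with DESeq2, 393 with no filter, 76 with at least 10 counts in every library and 342 with the block. With at least 10 counts in every library, where fewer genes are tested, S3 against S0-Low went from 5932 to 3043, Lin+ against S3 from 7501 to 3328, and any difference from 4077 to 2103; the last was 6429 with DESeq2 and 6253 with no filter. With a replicate left out, S1 against S0-Low had 119 to 295 genes (every library lowered it by more than 1.5 times) and Lin+ against S0-Low 42 to 69 (likewise). S3 against S1 had 1722 to 3376, with 1824, 1722 and 2039 without S1 replicate 1, S1 replicate 2 and S3 replicate 3. S3 against S2 had 692 to 2375, with 698, 692, 2375 and 881 without S2 replicates 1, 2 and 3 and S3 replicate 3. S2 against S1 had 2 without S2 replicate 2 and otherwise 0. Aco1 could not be tested with at least 10 counts in every library. Values of Aco1 in S3 replicates 1 and 3 rest on 0 and 8 counts.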
